A study of Mus musculus with 12 samples.

Results

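Small leucine-rich proteoglycans were examined as a set of 9 genes: Dcn (decorin), Bgn (biglycan), Aspn (asporin), Fmod (fibromodulin), Lum (lumican), Prelp, Omd (osteomodulin), Ogn (osteoglycin) and Podn (podocan). They were taken by name from the 26305 gene identifiers of a count table, after these identifiers had been matched to mouse symbols. The RNA came from primary mouse embryonic fibroblasts (MEFs) of wild-type male C57BL/6 embryos at E13.5, grown in DMEM with 10% serum at 3% oxygen. Each culture received either 10 µM WM-2474, which the labels list as an inactive control, or the solvent DMSO, and was harvested after 96 h or 240 h. Every group therefore consisted of genetically unaltered cells, and neither an untreated culture nor an active compound was among the samples. The 4 groups of 3 replicates gave 12 libraries. The labels call the replicates biological but do not say whether they came from separate embryos, so that p-values measure the spread between these cultures, which may be partly technical.

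The family is defined by a core of leucine-rich repeats that forms a curved protein and binds collagen fibrils in the extracellular matrix. Decorin and biglycan carry chondroitin or dermatan sulfate chains, fibromodulin, lumican and osteomodulin can carry keratan sulfate, and asporin lacks the chain attachment of its closest relatives. Members regulate how collagen fibrils assemble and how thick they become, and several bind growth factors of the TGF-beta family. Fibroblasts are a main source of these proteins in connective tissue.

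All 9 genes passed the filter on low counts, which left 13499 genes for testing. Library totals ranged from 7313007 to 26019167 counts, and a floor of 3 counts per library corresponded to 0.12 to 0.424 CPM (counts scaled to a common library size with factors for library composition), which covers counting error only. The fibroblast identity of the cultures was visible in 12 of 12 fibroblast markers that passed the filter, whose summed level was 26209 to 31272 CPM at 96 h and 39833 to 44519 CPM at 240 h. Among the DMSO libraries of 240 h, replicates 1 and 2 stood apart. They held 16.6 and 18.3 CPM of 12 summed B-lineage markers, against at most 4.39 CPM elsewhere, and 5.23 and 4.48 CPM of Xist, which is expressed from the inactive X chromosome of female cells, against at most 0.924 CPM elsewhere. For the 9 members, calls over time with DMSO and the comparison of treatments at 240 h are given with and without these libraries. For the lists of related genes and of markers, counts over time without them are given only in part.

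Biglycan dominated the family. Per kilobase of exon, using the exon lengths of the deposited table, Bgn averaged 1117 ± 27.2 RPKM (SD, n = 3) in DMSO at 96 h, 1124 ± 21.1 in WM-2474 at 96 h, 1755 ± 19.7 in DMSO at 240 h and 1761 ± 82.8 in WM-2474 at 240 h. It made up 87.4 to 90.1% of the summed RPKM of the 9 genes in every library. By CPM it ranked between 15 and 17 among all genes of a 96 h library and between 11 and 12 in a 240 h library. The other 8 genes lay at 1.78 to 92.4 RPKM.

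At 96 h the level of Bgn was 30.5 times that of the next member, Ogn, in DMSO and 31.8 times in WM-2474. Ogn (36.6 ± 5.54 RPKM in DMSO), Dcn (31.6 ± 5.78) and Aspn (28.0 ± 1.90) followed, and the libraries of each neighbouring pair overlapped. Fmod (17.3 ± 5.07 RPKM) and Prelp (15.1 ± 3.94) overlapped as well. Podn (5.69 ± 0.309 RPKM) and Lum (5.11 ± 1.29) came next, and Omd was lowest at 2.61 ± 0.247 RPKM. The order of the 9 genes was the same in WM-2474, where the only change among neighbours was that Podn and Lum no longer overlapped.

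At 240 h Aspn held the second place below Bgn, with 76.3 ± 11.6 RPKM in DMSO and 85.2 ± 7.54 in WM-2474, and its libraries lay above all those of Dcn (36.6 ± 5.42 and 40.5 ± 11.8 RPKM). Ogn had dropped from the second to the sixth place, at 25.3 ± 0.252 RPKM in DMSO and 25.6 ± 2.22 in WM-2474. Dcn, Prelp, Fmod and Ogn could not be placed in a firm order in DMSO, since the libraries of each neighbouring pair overlapped. Pairs further apart in this order did separate, with Dcn (30.4 to 40.5 RPKM) wholly above Fmod (24.4 to 28.9) and Ogn (at most 25.5), and Prelp (25.8 to 31.7) above Ogn. Podn, Lum and Omd remained the 3 lowest members, each separated from the next.

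**Figure D1:**
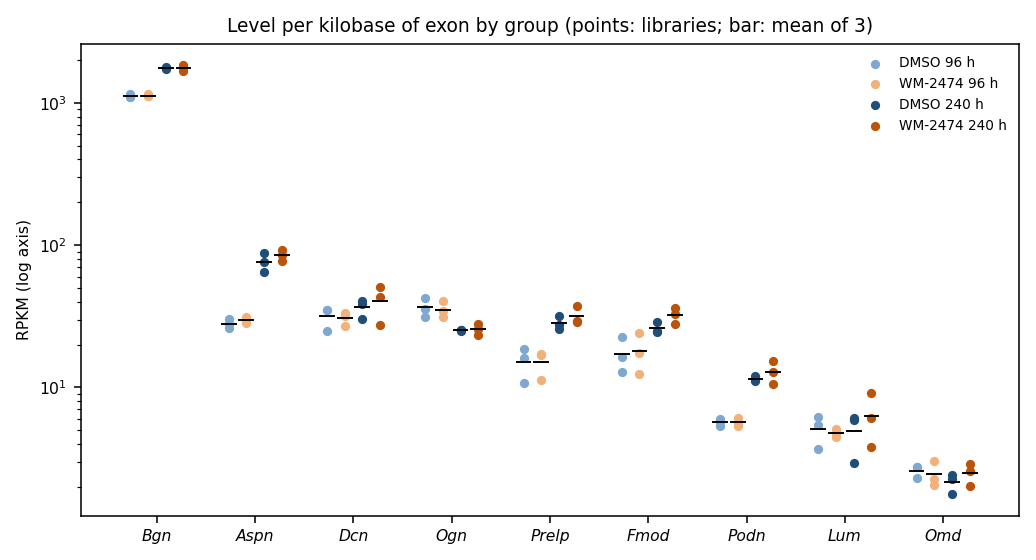
Level of each of the 9 genes per kilobase of exon (RPKM, log axis) in the 4 groups of treatment and time. Points are libraries and bars are means of 3. Bgn lies between 1096 and 1833 RPKM, and no other gene exceeds 92.4 RPKM.

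Time in culture separated the members. Of the 9 genes, 4 were higher at 240 h than at 96 h with DMSO (Aspn, Podn, Prelp and Bgn) and 1 was lower (Ogn) by edgeR's quasi-likelihood test with Benjamini-Hochberg adjustment over all genes at 0.05. Over all 13499 genes, 17.5% were called higher and 17.3% lower in that comparison. With WM-2474, 5 of the 9 genes were higher (the same 4 and Fmod) and 1, again Ogn, was lower, where 15.9% of all genes were called higher and 14.8% lower. The median log2 change of the 9 genes was 0.60 with DMSO and 0.65 with WM-2474, beside -0.01 and 0.00 over all genes tested. Scaling by library totals in place of composition factors moved the median over all genes to -0.13 with DMSO and -0.14 with WM-2474 and turned the split of all calls to 8.82% higher and 32.4% lower with DMSO and 8.13% higher and 32.5% lower with WM-2474, while Aspn, Podn, Prelp and Bgn were still called higher and Ogn lower in each treatment. The comparisons with DMSO and with WM-2474 share no libraries, but they share a common estimate of the spread over all 12 libraries. Deviations of same-numbered 96 h libraries also correlated across treatments (0.191 to 0.301), so that the comparisons are not fully independent. In RNA from whole cultures, fewer cells that express a gene and less of its RNA per cell cannot be told apart.

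The groups of libraries did not overlap between 96 h and 240 h for 6 of the 9 genes in either treatment, 5 of them higher (Aspn, Podn, Prelp, Bgn and Fmod) and Ogn lower. The same holds for 22.9% of all genes upward and 22.8% downward with DMSO, and for 21.1% and 21.2% with WM-2474. Without DMSO 240 h replicates 1 and 2, the comparison with DMSO called 3 members higher (Bgn, Aspn and Podn), where 10.6% of all genes were called higher, and 0 lower, where 9.77% were. The remaining DMSO library of 240 h is then assumed to vary like the other groups.

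**Figure D2:**
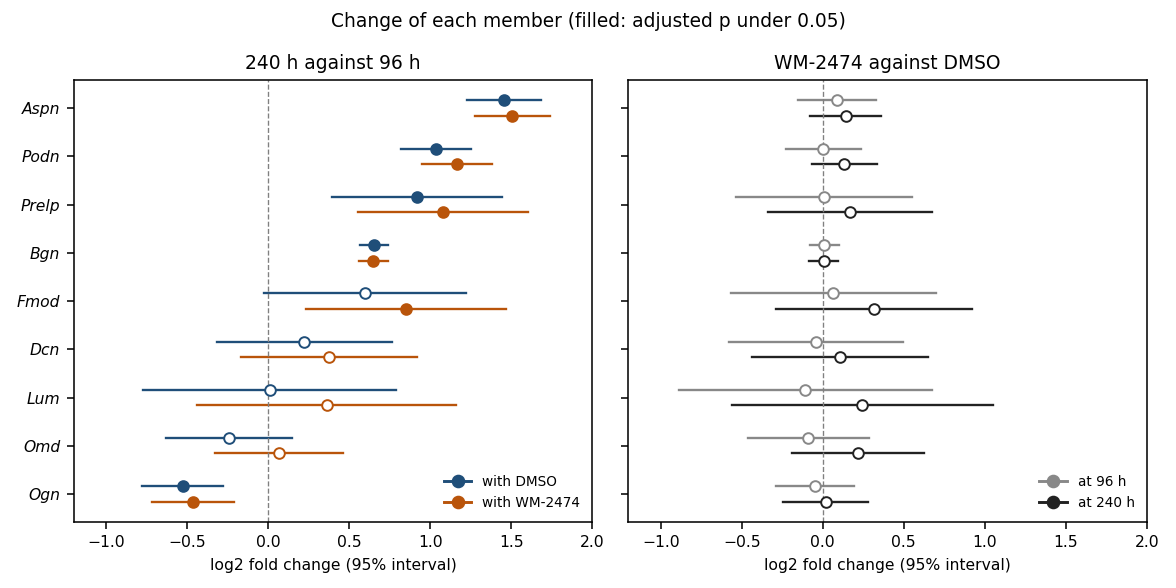
Log2 fold change of each gene with its 95% interval from the fit, for 240 h against 96 h (left) and for WM-2474 against DMSO (right). Filled points passed the test; Aspn has the highest estimates over time, 1.45 and 1.51, and every point of the treatment comparisons is open.

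Asporin, which binds collagen and members of the TGF-beta family, had the largest change of the 9 genes. Its level was 70.8, 61.9 and 65.3 CPM in the DMSO libraries of 96 h and 179, 153 and 207 CPM in those of 240 h (replicates 1, 2 and 3 here and below). In WM-2474 it was 73.7, 70.7 and 66.6 CPM at 96 h and 202, 182 and 218 CPM at 240 h. Every 240 h library lay above every 96 h library, with a wide gap. The rise was 2.74-fold with DMSO (log2 1.45 ± 0.11, SE, adjusted p = 4.87e-07) and 2.84-fold with WM-2474 (log2 1.51 ± 0.11, adjusted p = 3.57e-07).

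Biglycan, which carries up to a pair of chondroitin or dermatan sulfate chains, changed less in fold but was measured most precisely. It stood at 2643, 2742 and 2619 CPM in DMSO at 96 h and at 4175, 4157 and 4246 CPM at 240 h. The WM-2474 libraries held 2654, 2743 and 2657 CPM at 96 h and 4380, 3991 and 4252 CPM at 240 h. Replicates were close to each other and the times were fully separated. The rise was 1.57-fold in each treatment, with a log2 change of 0.65 ± 0.04 (adjusted p = 6.24e-12 with DMSO and 7.83e-12 with WM-2474).

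Decorin, the closest relative of biglycan and a regulator of fibril diameter, did not pass the test in either treatment. It was measured at 72.8, 51.9 and 72.7 CPM in DMSO at 96 h and at 80.9, 63.4 and 84.5 CPM at 240 h. In WM-2474 the values were 66.0, 56.8 and 69.9 CPM at 96 h and 105, 57.4 and 90.5 CPM at 240 h. The times overlapped, and replicate 2 was the lowest library in every group. The log2 change was 0.22 (95% interval -0.32 to 0.76, adjusted p = 0.521) with DMSO and 0.37 (-0.17 to 0.92, adjusted p = 0.283) with WM-2474. Without WM-2474 240 h replicate 2 the latter became 0.61 and passed the test (adjusted p = 0.0437). With replicate number added to the edgeR fit, Dcn passed in each treatment (adjusted p = 0.0478 with DMSO and 0.0021 with WM-2474). No label states that same-numbered samples share a source.

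**Figure D3:**
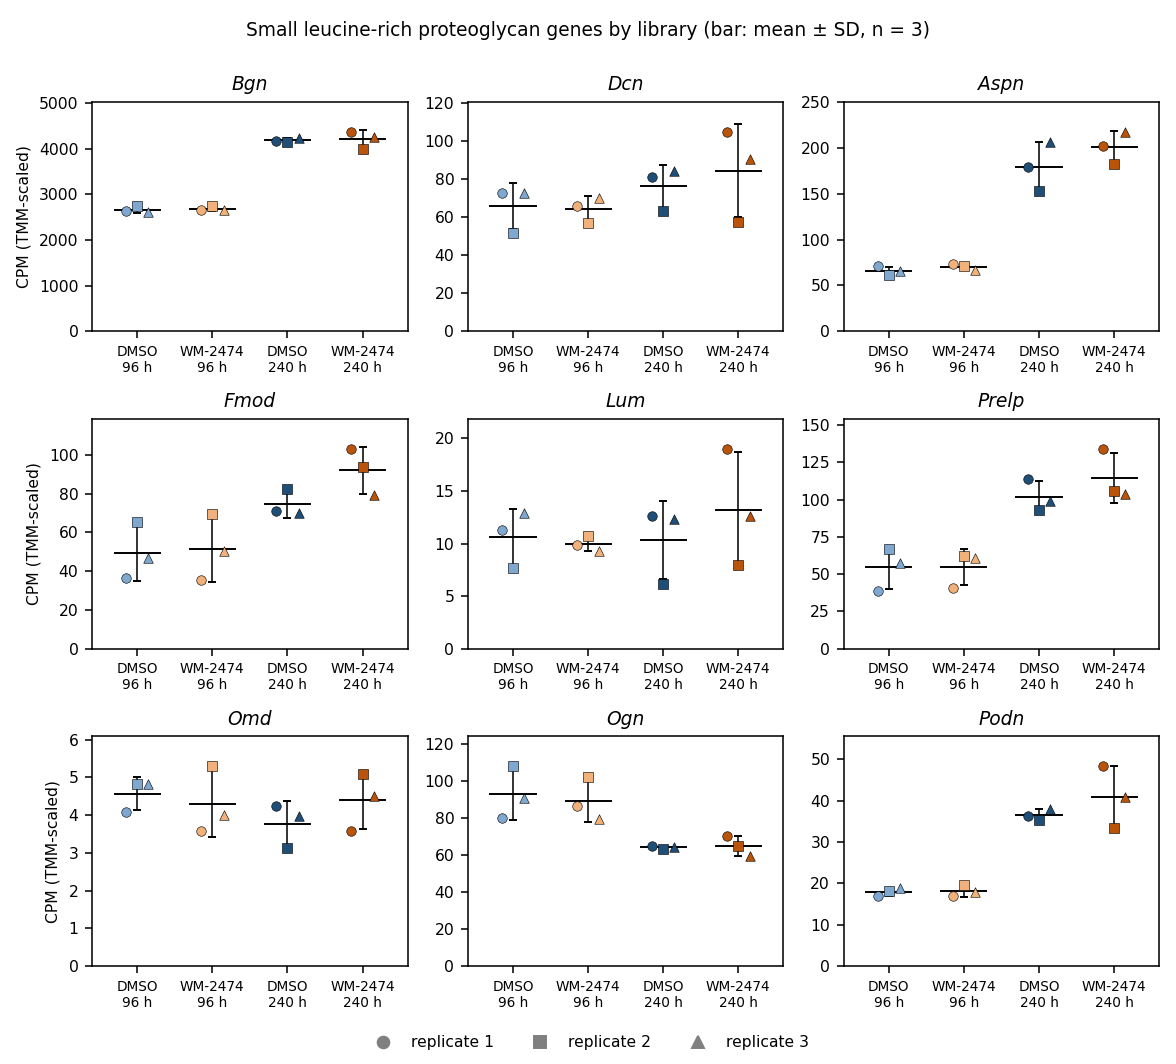
CPM of each of the 9 genes in the 12 libraries, by group, on axes that start at 0. Symbols mark the replicate number, and the bars give mean ± SD (n = 3). Aspn, Podn, Prelp, Bgn and Fmod are higher in every 240 h library than in any 96 h library of the same treatment, and Ogn is lower.

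Among the members that can carry keratan sulfate or are related to them, Prelp rose and Fmod passed the test in a single treatment. Prelp, which links basement membranes to the underlying matrix, was at 39.0, 66.9 and 57.5 CPM in DMSO at 96 h and at 114, 93.1 and 98.9 CPM at 240 h. In WM-2474 it was at 40.6, 62.3 and 60.7 CPM at 96 h and at 134, 106 and 104 CPM at 240 h. All 240 h libraries exceeded all 96 h libraries, and replicate 1 was the lowest at 96 h and the highest at 240 h in each treatment. The rise was 1.89-fold with DMSO (log2 0.92 ± 0.23, adjusted p = 0.0144) and 2.11-fold with WM-2474 (log2 1.08 ± 0.23, adjusted p = 0.00722). Without DMSO 240 h replicates 1 and 2 the change with DMSO was 0.88 and did not pass (adjusted p = 0.117).

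Fibromodulin, which binds collagen and modulates its cross-linking, was at 36.7, 65.2 and 46.7 CPM in DMSO at 96 h and at 71.0, 82.5 and 69.9 CPM at 240 h. In WM-2474 the levels were 35.3, 69.2 and 50.2 CPM at 96 h and 103, 93.8 and 79.1 CPM at 240 h. The times did not overlap in either treatment, but the 96 h replicates were widely spread, with replicate 1 lowest and replicate 2 highest in each. The log2 change was 0.60 ± 0.27 (adjusted p = 0.13) with DMSO and 0.85 ± 0.27 (1.80-fold, adjusted p = 0.0433) with WM-2474. The latter call was close to the threshold and was lost on leaving out any of 9 of the 12 libraries, including all 3 of DMSO at 240 h, with changes of 0.62 to 1.12 over all 12 omissions.

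Lumican, known for its part in corneal transparency, gave no call. Its levels were 11.3, 7.64 and 12.9 CPM in DMSO at 96 h and 12.6, 6.11 and 12.3 CPM at 240 h. In WM-2474 they were 9.90, 10.7 and 9.30 CPM at 96 h and 19.0, 7.92 and 12.6 CPM at 240 h. The groups overlapped, and replicate 2 was the lowest library in 3 of the 4 groups. The log2 change was 0.01 (95% interval -0.77 to 0.79) with DMSO and 0.36 (-0.44 to 1.16) with WM-2474, so that changes of up to log2 0.79 and 1.16 lay inside the intervals. These values rest on 45 to 306 counts per library.

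Podocan, a member of a separate class known to restrain smooth muscle cell growth, rose in each treatment. It was at 17.0, 18.2 and 18.9 CPM in DMSO at 96 h and at 36.4, 35.3 and 38.1 CPM at 240 h. In WM-2474 it was at 16.9, 19.5 and 17.9 CPM at 96 h and at 48.3, 33.3 and 40.8 CPM at 240 h. The 96 h libraries were tight, and all 240 h libraries lay well above them. The rise was 2.05-fold with DMSO (log2 1.04 ± 0.10, adjusted p = 4.02e-08) and 2.24-fold with WM-2474 (log2 1.16 ± 0.10, adjusted p = 7.09e-09).

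Osteoglycin, which influences collagen fibril formation and was first isolated from bone, fell with time. It was at 80.1, 108 and 90.8 CPM in DMSO at 96 h and at 64.8, 63.5 and 64.2 CPM at 240 h. In WM-2474 it was at 86.8, 102 and 79.5 CPM at 96 h and at 70.6, 64.9 and 59.3 CPM at 240 h. All 240 h libraries were below all 96 h libraries. The fall was 1.44-fold with DMSO (log2 -0.53 ± 0.12, adjusted p = 0.00374) and 1.38-fold with WM-2474 (log2 -0.46 ± 0.12, adjusted p = 0.00947). Without DMSO 240 h replicates 1 and 2 the change with DMSO was again -0.53, but did not pass (adjusted p = 0.0686).

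Osteomodulin, a bone matrix protein that supports osteoblast attachment, was the least abundant member. It was at 4.07, 4.83 and 4.81 CPM in DMSO at 96 h and at 4.24, 3.12 and 3.97 CPM at 240 h. In WM-2474 it was at 3.59, 5.29 and 4.01 CPM at 96 h and at 3.58, 5.10 and 4.51 CPM at 240 h. The groups overlapped. The log2 change was -0.24 (95% interval -0.63 to 0.15) with DMSO and 0.07 (-0.33 to 0.46) with WM-2474, on 23 to 99 counts per library.

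Aspn, Omd and Ogn follow one another on chromosome 13 and are read in the same direction. In the GRCm38.p6 annotation Aspn spans chr13:49544443-49567565, Omd chr13:49582462-49592612 and Ogn chr13:49608015-49624501, all on the plus strand, with gaps of 14897 and 15403 bp. The outer genes of this trio moved in opposite directions and the middle gene did not pass the test. As a ratio of RPKM within a library, Aspn over Ogn was 0.618 to 0.953 in the 6 libraries of 96 h and 2.59 to 3.96 in the 6 libraries of 240 h. Cenpp, a centromere protein gene on the minus strand, overlaps all 3 loci but shares only 7 of 2354 exon bases with Aspn and 0 with Omd and Ogn. Its own log2 change was -0.46 with DMSO and -0.65 with WM-2474, neither past the test.

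The start regions of these 3 genes, 250 bases before to 50 bases after the annotated start (RefSeq, GRCm38.p6, plus strand, 5′ to 3′), are shown because Aspn and Ogn moved in opposite directions over time. The direction of Omd was left undecided by its intervals. They are chr13:49544193-49544492 for Aspn, chr13:49582212-49582511 for Omd and chr13:49607765-49608064 for Ogn. Capitals mark CANNTG, the core letters of an E-box.
Aspn: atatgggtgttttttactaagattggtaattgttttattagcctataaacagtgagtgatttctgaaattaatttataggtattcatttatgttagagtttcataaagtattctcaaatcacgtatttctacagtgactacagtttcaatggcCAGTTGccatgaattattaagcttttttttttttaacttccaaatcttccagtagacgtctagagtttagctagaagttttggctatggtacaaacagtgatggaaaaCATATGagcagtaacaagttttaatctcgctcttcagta
Omd: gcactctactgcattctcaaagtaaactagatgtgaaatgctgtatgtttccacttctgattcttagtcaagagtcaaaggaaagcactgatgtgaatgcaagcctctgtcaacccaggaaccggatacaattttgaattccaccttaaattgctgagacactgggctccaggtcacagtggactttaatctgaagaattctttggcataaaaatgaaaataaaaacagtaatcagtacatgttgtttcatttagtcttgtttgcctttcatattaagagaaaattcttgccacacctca
Ogn: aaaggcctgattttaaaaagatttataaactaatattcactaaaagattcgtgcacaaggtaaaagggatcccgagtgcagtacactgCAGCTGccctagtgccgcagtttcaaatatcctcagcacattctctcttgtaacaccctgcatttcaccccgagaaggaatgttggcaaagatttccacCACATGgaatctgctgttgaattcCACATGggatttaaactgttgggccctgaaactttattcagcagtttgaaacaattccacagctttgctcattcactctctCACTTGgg
CANNTG occurred at 2 places in the window of Aspn, at 0 in that of Omd and at 4 in that of Ogn, and 72.31% of all 32851 windows of this length hold it. The 3 windows were rich in A and T. Their GC content was 31.0% for Aspn, 37.7% for Omd and 42.3% for Ogn, at percentiles 1.3, 6.6 and 14.9 of all windows, whose median was 52.7%. The letters TATAAA were found on both strands, at 2 places each, in Aspn and in Ogn, where the places overlap, against 13.62% of all windows with at least 1 match. A match is a description of the letters and not a binding site.

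The remaining members lie elsewhere. Prelp (chr1:133910304-133930102, minus strand) and Fmod (chr1:134037254-134048280, plus strand) are neighbours 107152 bp apart, and both had higher levels at 240 h in all libraries. By the test over time, Prelp passed in each treatment and Fmod with WM-2474 only. Dcn (chr10:97479500-97518163) and Lum (chr10:97565501-97572703) are neighbours 47338 bp apart on the plus strand, and neither passed the test over time in the fit by group alone. Podn lies at chr4:108014793-108031954 on the minus strand, and Bgn at chrX:73483601-73495936 on the plus strand.

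In the fit by group, the comparison of WM-2474 with DMSO called none of the 9 genes at either time. At 96 h, 0 members passed the test, where 0% of all genes did, and at 240 h 0 members passed, where 0.0296% did. The averaged effect of both times (0.0148% of all genes) and the difference between the effects at 240 h and 96 h (0%) gave 0 members as well. In these 4 comparisons edgeR gave 0 members with an unadjusted p under 0.05, against 283, 1099, 763 and 626 of all 13499 genes (2.1%, 8.14%, 5.65% and 4.64%). DESeq2 and limma-voom called 0 members as well, beside 11 and 7 of all genes at 240 h, 2 and 2 in the average and 0 in the other comparisons. At 240 h DESeq2 gave no adjusted p for 4 of the 9 members (Lum, Fmod, Omd and Podn), which it therefore could not call. An edgeR fit of only the 240 h libraries, with replicate number as a block, did call Fmod (log2 0.29, adjusted p = 0.00746). That fit called 91 of 12777 genes (0.712%). Libraries of DMSO and WM-2474 overlapped for all 9 genes at each time, against 7.45% of all genes that did not overlap at 96 h and 14.3% at 240 h.

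The intervals show what the fit by group, which leaves out replicate number, could resolve. At 96 h the deviations of same-numbered libraries correlated across treatments (0.191 to 0.301). The 96 h intervals can therefore include spread that both treatments share. For Bgn the log2 difference between WM-2474 and DMSO was 0.01 (95% interval -0.08 to 0.10) at 96 h and 0.005 (-0.08 to 0.09) at 240 h. For Podn it was 0.004 (-0.23 to 0.24) and 0.13 (-0.07 to 0.34), for Aspn 0.09 (-0.15 to 0.33) and 0.14 (-0.08 to 0.36), and for Ogn -0.05 (-0.29 to 0.19) and 0.02 (-0.25 to 0.28). These 4 members were bounded within log2 0.36 in either direction.

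The other 5 members were bounded less closely. For Fmod the difference was 0.07 (-0.57 to 0.70) at 96 h and 0.32 (-0.29 to 0.92) at 240 h, the largest estimate of the 9 genes. For Lum it was -0.11 (-0.89 to 0.67) and 0.25 (-0.56 to 1.05), so that a log2 difference of 1 at 240 h lay inside the interval. Dcn gave -0.04 (-0.58 to 0.50) and 0.11 (-0.44 to 0.65), Prelp 0.01 (-0.53 to 0.55) and 0.17 (-0.34 to 0.68), and Omd -0.09 (-0.46 to 0.28) and 0.22 (-0.19 to 0.62). At 240 h the median log2 difference of the 9 genes was 0.14, beside 0.00 over all genes tested. The change over time was not shown to differ between the treatments for any member. Its difference was 0.25 (-0.63 to 1.13) for Fmod, which had passed the test over time with WM-2474 and not with DMSO, and the smallest adjusted p among the 9 genes was 0.977.

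Without DMSO 240 h replicates 1 and 2, a single DMSO library of 240 h remained, which is assumed to vary like the other groups. edgeR then called 0 members and 0 of 14038 genes at 240 h, in the average and in the difference between times. Unadjusted p-values below 0.05 numbered 589, 540 and 412 over all genes. The estimates at 240 h shifted. Aspn went from 0.14 to -0.05, Lum from 0.25 to 0.06, Dcn from 0.11 to -0.02 and Fmod from 0.32 to 0.40.

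The spread between replicates differed among members. Dcn was lowest in replicate 2 of all 4 groups, which holds for 2.04% of all genes tested. The other choices of replicate, lowest or highest in all 4 groups, hold for 1.36 to 2.16% of all genes each. An order of this kind in 1 of 9 members was therefore not shown to be unusual. A test of replicate number beside the group, chosen after this order had been seen, called Dcn alone among the 9 genes (log2 -0.49 for replicate 2 against replicate 1, adjusted p = 0.00126), where 1.24% of all genes were called. Lum showed a difference of -0.64 between the same replicates, without passing the test (adjusted p = 0.434). In the WM-2474 libraries of 240 h, replicate 1 was the highest for 7 of the 9 genes, all but Aspn and Omd. The share of all genes with replicate 1 highest in that group was not counted. The order can therefore not be read as particular to the members. Bgn deviated least from its group means.

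**Figure D4:**
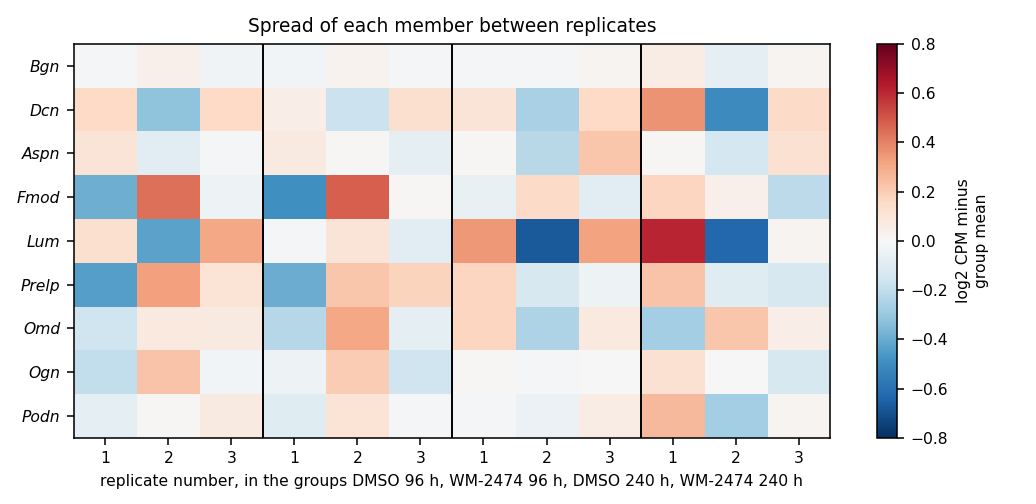
Deviation of each library from the mean of its group on the log2 CPM scale (colour, red above and blue below), for the 9 genes (rows) and 12 libraries (columns, ordered by group and replicate number). Dcn is blue in replicate 2 of every group, and Lum reaches -0.67 in DMSO at 240 h and 0.61 in WM-2474 at 240 h.

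Profiles over the 12 libraries were compared by the root mean square difference of log2 CPM after each gene was centred on its own mean, as a description without a test. The closest genes to Aspn were Lurap1l (0.131), the collagen VI gene Col6a3 (0.138) and Ptk2b (0.168). Podn was closest to the Notch receptor gene Notch3 (0.094), to P4ha3 (0.101), which encodes a subunit of collagen prolyl hydroxylase, and to Itga1 (0.104). Prelp was closest to the mechanosensitive channel gene Piezo2 (0.141), to Notch3 (0.146) and to Col6a2 (0.164). All 3 profiles have high 240 h libraries in common.

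Bgn was closest to the cadherin gene Cdh11 (0.046), to Sertad4 (0.049) and to Serinc3 (0.055), and Ogn to Tspan4 (0.079), Arhgap39 (0.094) and Il6st (0.101). Fmod was closest to Cacna1h (0.172), to Adamts4 (0.182), which encodes a protease of matrix proteoglycans, and to Lama4 (0.192). Dcn was closest to Klhl29 (0.116), Adh1 (0.119) and Ptn (0.121), and Omd to Casp12 (0.109), Bloc1s3 (0.110) and Fancf (0.118). Lum had a family member among its 3 closest genes, namely Igf1 (0.220), Lyrm7 (0.220) and Dcn (0.237). For every other member the closest relative in the family was further down the order.

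Of 9 further genes of the family, 4 passed the filter, and Kera, Epyc, Chad, Nyx and Ecm2 did not. Tsku was the most abundant of them, at 46.8 to 59.9 CPM (16.7 to 21.4 RPKM), above Podn, Lum and Omd in every library. Podnl1 was at 11.2 to 14.9 RPKM at 96 h, above the same members at that time. Podnl1, the closest relative of Podn, fell where Podn rose, from 29.1 ± 1.99 to 14.9 ± 0.450 CPM with DMSO (log2 -0.95 ± 0.11, adjusted p = 1.08e-07) and from 28.2 ± 4.21 to 16.7 ± 2.17 CPM with WM-2474 (log2 -0.75 ± 0.11, adjusted p = 4.73e-06). Chadl fell with DMSO, from 2.87 ± 0.818 to 1.32 ± 0.339 CPM (adjusted p = 0.00275), and did not pass with WM-2474 (log2 -0.67 ± 0.31). Optc, the neighbour of Prelp on chromosome 1, rose in each treatment (log2 0.61 ± 0.19 and 0.60 ± 0.19) at 2.47 to 4.14 CPM, and Tsku passed with WM-2474 (log2 0.20 ± 0.07) and not with DMSO (adjusted p = 0.11). With library totals, 0 of these 4 genes rose with WM-2474. Over 23 alternative settings the rising genes numbered 0 to 1 with DMSO and 0 to 2 with WM-2474. Their number differed from that of the main fit in 4 and 9 of these settings.

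Most collagens that these proteoglycans bind rose with time. Of 14 fibrillar and fibril-associated collagen genes tested, 10 rose and 0 fell with DMSO, and 11 rose and 0 fell with WM-2474, with median log2 changes of 0.62 and 0.75. Col6a3 rose from 696 ± 50.5 to 2224 ± 175 CPM with DMSO (log2 1.68 ± 0.06, adjusted p = 7.27e-17). Col12a1, which encodes a collagen of fibril surfaces, and Col5a1, which encodes a chain that starts fibrils, rose by log2 0.89 ± 0.05 and 1.01 ± 0.06 with DMSO and by 0.87 ± 0.05 and 1.08 ± 0.06 with WM-2474.

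Enzymes that build the sugar chains moved in several directions. Of 15 chondroitin and dermatan sulfate enzymes tested, 4 rose and 0 fell with DMSO, and 7 rose and 0 fell with WM-2474. The largest of the named rises was that of Csgalnact1, which starts chondroitin chains (log2 0.88 ± 0.10 and 1.08 ± 0.10). Of 8 keratan sulfate and sulfate donor enzymes, 4 rose and 2 fell with DMSO, and 3 rose and 2 fell with WM-2474. The sulfotransferase gene Chst1 fell (log2 -0.74 ± 0.12 and -0.83 ± 0.12) and Chst2 rose (log2 0.32 ± 0.07 and 0.48 ± 0.07), and of the genes for enzymes that make the sulfate donor, Papss1 fell (-0.24 ± 0.05 and -0.23 ± 0.05) and Papss2 rose (0.55 ± 0.07 and 0.42 ± 0.07). With library totals, the chondroitin and dermatan sulfate enzymes that rose with WM-2474 numbered 4, 2 fell in each treatment, and the keratan sulfate enzymes that rose with DMSO numbered 2.

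Of 10 proteases that can cleave these proteoglycans, 5 rose and 2 fell in each treatment. Bmp1, which removes the propeptide of biglycan and of fibrillar procollagens, rose by log2 0.37 ± 0.05 with DMSO and 0.50 ± 0.05 with WM-2474. Htra1 rose by 0.72 ± 0.07 and 0.77 ± 0.07, and Adamts4 by 0.64 ± 0.09 and 0.85 ± 0.09. Adamts1 and Adamts5 fell by 0.42 and 0.51 on the log2 scale with DMSO and by 0.47 and 0.58 with WM-2474.

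Of 17 growth factors and receptors bound by members of the family, 9 rose and 5 fell with DMSO, and 7 rose and 5 fell with WM-2474. Tgfb1, which encodes TGF-beta 1, rose from 50.8 ± 3.87 to 78.5 ± 2.68 CPM with DMSO (log2 0.63 ± 0.07) and by log2 0.57 ± 0.07 with WM-2474. The gene of its type II receptor, Tgfbr2, fell (log2 -0.34 ± 0.06 and -0.25 ± 0.06). Ccn4, whose protein binds decorin and biglycan, rose by log2 1.54 ± 0.09 and 1.57 ± 0.09. Met, which encodes a receptor for decorin, fell by log2 0.41 and 0.40. The count of falling genes with DMSO was 3 without replicate 3 of DMSO at 240 h or without replicates 1 and 2 of that group. The corresponding count with WM-2474 was 2 when its replicate 2 of 240 h was omitted. It was 3 on omitting replicate 3 of the same group, or replicate 2 or 3 of the compound at 96 h, or DMSO 240 h replicates 1 and 2 together. In the treatment comparisons 0 genes of any of these lists passed the test.

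**Figure D5:**
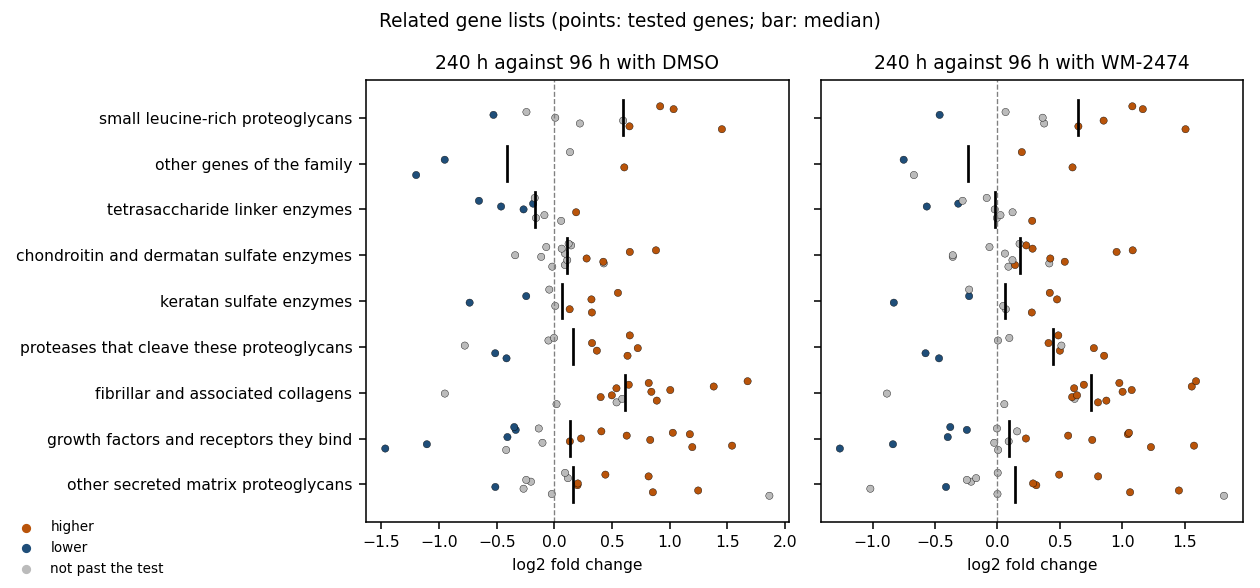
Log2 fold change from 96 h to 240 h with DMSO (left) and WM-2474 (right) for the 9 genes and 8 lists of related genes. Points are tested genes (orange higher, blue lower, grey not past the test), and black bars are medians; the collagens lie mostly to the right of 0, with medians of 0.62 and 0.75.

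Markers of other cell states moved with the members over time, and their part in these changes was not tested. All 6 smooth muscle and myofibroblast markers rose in each treatment, and their sum went from 4572 to 4910 CPM at 96 h to 8601 to 9924 CPM at 240 h. Acta2, the smooth muscle actin gene, rose by log2 0.95 ± 0.05 with DMSO and 0.99 ± 0.05 with WM-2474. Of 12 fibroblast markers, 8 rose and 2 fell with DMSO, and 9 rose and 1 fell with WM-2474. Their list shares Col1a1, Col1a2 and Col3a1 with the collagens.

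Of 7 tendon markers tested, 3 rose and 4 fell in each treatment. The tendon regulator Scx fell from 6.60 ± 1.26 to 2.78 ± 0.707 CPM with DMSO. As means over both treatments, the rising genes went from 18.5 to 23.4 CPM (Tnmd), 6.14 to 13.8 (Tnxb) and 3.36 to 5.53 (Egr2). The 9 listed tendon genes summed to 176 to 227 CPM at 96 h and 152 to 191 CPM at 240 h. Most of this sum was Egr1, at 106 to 184 CPM over all libraries. Of 4 osteoblast markers tested, 1 fell in each treatment, and the 10 listed genes summed to 227 to 367 CPM at 96 h and 238 to 357 CPM at 240 h. Of these, Spp1, which encodes osteopontin, stood at 182 to 315 CPM and the osteoblast regulator Runx2 at 40.4 to 53.6 CPM over all libraries, while the genes of the late markers osteocalcin (Bglap) and bone sialoprotein (Ibsp) were at 0 in 9 of 12 libraries each. Of 6 chondrocyte markers tested, 2 fell in each treatment, while the sum of 10 listed genes was 115 to 208 CPM at 96 h and 75.6 to 128 CPM at 240 h. Over 23 alternative settings the falling chondrocyte genes numbered 1 to 3 with DMSO and 0 to 3 with WM-2474. The falling osteoblast genes numbered 0 to 2 in each treatment. Adipocyte and epithelial or mesothelial markers were lower at 240 h, with 4 of 4 and 4 of 5 tested genes falling with DMSO and 4 of 4 and 3 of 5 with WM-2474. Their sums went from 61.0 to 74.7 CPM at 96 h to 42.2 to 52.4 CPM at 240 h and from 46.1 to 66.8 CPM to 18.4 to 24.1 CPM. With DMSO the falling adipocyte genes numbered 2 without DMSO 240 h replicate 2, without DMSO 96 h replicate 3 or without DMSO 240 h replicates 1 and 2, and the falling epithelial or mesothelial genes numbered 2 without DMSO 96 h replicate 1.

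The summed level of 6 skeletal muscle markers went from 114 to 141 CPM at 96 h to 222 to 302 CPM at 240 h. The skeletal actin gene Acta1 made up nearly all of it (113 to 301 CPM) and was the 1 of 2 tested markers that rose in each treatment, and the creatine kinase gene Ckm was at 0 in all 12 libraries. Endothelial markers summed to 5.09 to 8.36 CPM at 96 h and 2.59 to 5.38 CPM at 240 h, with 1 of 3 tested genes falling with DMSO and 2 of 3 with WM-2474. Macrophage and leukocyte markers summed to 10.3 to 12.6 CPM and 6.59 to 10.2 CPM, with 2 of 4 falling in each treatment, and neural markers to 61.5 to 78.8 CPM and 58.7 to 69.2 CPM, with 1 of 3 falling with DMSO and 0 with WM-2474. Over 23 alternative settings the falling endothelial genes numbered 0 to 2 with DMSO and 1 to 3 with WM-2474. The falling neural genes numbered 0 to 2 and 0 to 1, and the falling macrophage and leukocyte genes with WM-2474 numbered 0 to 2. Mki67, which marks dividing cells, was at 194 to 240 CPM at 96 h and 147 to 178 CPM at 240 h. Cdkn2a, which encodes inhibitors of cell division, was at 91.1 to 124 CPM and 166 to 200 CPM. For both genes the libraries of the 2 times did not overlap.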

How the data were processed

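The authors deposited raw counts per gene, whole numbers that were not normalized, with an exon length per gene. The counts came from featureCounts on mm10, per the submitters' processing notes, and from a stranded mRNA kit, per the labels' protocols. Aligner, annotation, versions and strand setting are not given in the sources used here. Of 27179 entries, 874 without an identifier (0.547 to 0.648% of counts) were left out, and symbols were matched for 25275 of 26305 identifiers (GRCm38.p6). Genes were filtered with filterByExpr, scaled with TMM (1.04 to 1.05 at 96 h, 0.944 to 0.967 at 240 h) and fitted in edgeR 4.0.16 with 1 coefficient per group over all 12 libraries, and the quasi-likelihood F test was adjusted by Benjamini-Hochberg over 13499 genes (two-sided, threshold 0.05). The script was tested on simulated data. An exact permutation of 3 against 3 libraries cannot go below p = 0.1. Values after ± are standard errors for log2 changes and standard deviations of 3 libraries for levels, and RPKM are scaled CPM per kilobase of exon.

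The members and lists were chosen with earlier results of these data known. Named genes are the members, up to 3 rising and 3 falling genes of each list with the smallest p, and the 3 closest profiles per member. Col1a1, Col3a1, Cenpp, Xist, Bglap, Ibsp, Spp1, Ckm, Mki67, Cdkn2a, Kera, Epyc, Chad, Nyx and Ecm2 lie outside this rule and were chosen after their values were seen. Egr1 was also named after its values were seen. Replicate numbers paired at 96 h, where same-numbered deviations correlated at 0.191 to 0.301 across treatments; no label states a shared source. Alternatives were RLE factors, library totals, other filters, DESeq2 1.42.0, limma-voom 3.58.1 with quality weights, the replicate block, fits of only the compared libraries, a test against a fold of 1.2, and omitted libraries. The analysis ran in R 4.3.3 and Python 3.11.15.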

Additional observations from a re-analysis of the deposited data

How the results depend on the processing

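Aspn, Bgn and Podn passed the test over time in all 23 alternatives with DMSO and in all 23 with WM-2474, with log2 changes of 1.32 to 1.65, 0.51 to 0.69 and 0.91 to 1.31. Ogn, Prelp and Fmod depended on the setting. The count of lower members with DMSO became 0 without both DMSO 240 h replicates 1 and 2 (Ogn), and that with WM-2474 became 0 in the test against a fold of 1.2 (Ogn, adjusted p = 0.123); the cause was not tested. Prelp with DMSO was lost in 3 of 23 alternatives (adjusted p = 0.0556 to 0.152), and Fmod with WM-2474 in 15 of 23 (adjusted p up to 0.188), among them library totals (0.0604) and no filter (0.059). Library totals kept all 36 ranks of members by RPKM. This could hardly come out otherwise, since a size factor scales all genes of a library alike, and it does not measure robustness. With replicate number as a block, Dcn passed over time (adjusted p = 0.0478 with DMSO and 0.0021 with WM-2474), and in the block fit of only the compared libraries WM-2474 against DMSO at 240 h called 1 member, Fmod (log2 0.29, adjusted p = 0.00746), and 91 of 12777 genes (0.712%) against 4 of 13499. In the same kind of fit over time, Fmod passed with DMSO (log2 0.61, adjusted p = 6.06e-06) and not with WM-2474 (0.188), and Prelp passed in neither treatment (0.152 and 0.119); same-numbered samples did not all correlate above 0.1 in these comparisons. The block changed no member's call at 96 h. Of 1206 member values over all comparisons and alternatives, 0 reversed while called. Counts of the related lists and marker lists stayed within 1.5 times in 1760 of 1932 cases, and these alternatives for lists were chosen after seeing the data. Cases with a count of 0 in both fits are included as unchanged, so that this share does not measure how stable the other counts are. Omd and Lum rest on the fewest counts, 23 to 99 and 45 to 306 per library.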

Other observations

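Enzymes of the linker that joins sugar chains to the core proteins were tested in 9 genes, of which 1 rose and 4 fell with DMSO and 1 rose and 2 fell with WM-2474. The number of rising genes with WM-2474 differed from this in 18 of 23 alternatives, with a range of 0 to 2. With DMSO it differed in 3, with a range of 0 to 1. With library totals 0 rose in either treatment, and 7 fell with DMSO and 4 with WM-2474; without DMSO 240 h replicate 3, 1 fell with DMSO. Ugdh, which makes the sugar donor UDP-glucuronate, fell from 255 ± 12.2 to 185 ± 14.4 CPM with DMSO (log2 -0.46 ± 0.05, edgeR adjusted p = 9.14e-08) and from 257 ± 7.43 to 174 ± 2.78 CPM with WM-2474 (log2 -0.57 ± 0.05, adjusted p = 2.99e-09). Xylt1, which starts the linker, fell with DMSO (log2 -0.65 ± 0.15). Of 14 other secreted proteoglycans and matrix proteins tested, 6 rose and 1 fell in each treatment. Dpt, whose protein binds decorin, rose by log2 0.86 ± 0.16 and 1.06 ± 0.16, and Fbln1 fell by log2 0.51 and 0.41.

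RefSeq start regions were matched for 7 of the 9 members, and Dcn and Lum were not matched. The windows of Fmod, Prelp and Bgn had a GC content of 51.0%, 55.3% and 63.7%, and the 2 windows of Podn 77.0% and 63.0%. The motifs searched on both strands were TATAAA (held by 13.62% of all windows), GGAATG (14.66%), TGANTCA (7.81%), GTGGGAA (6.38%), GGGCGG (35.66%), CANNTG (72.31%) and the CArG box (1.63%). GGGCGG occurred at 3 places in the window of Bgn and at 2 in the first window of Podn, and GGAATG at 1 place in that of Ogn. TGANTCA was in no window of these 7 members, and neither was GTGGGAA or a CArG box.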
